A study of Saccharomyces cerevisiae with 8 samples.

Results

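The genes described are 60 ribosome assembly factors of Saccharomyces cerevisiae, among 6336 yeast features on a spotted array: nucleolar assembly factors, helicases and rRNA processing proteins. They were picked by gene name, from a list drawn up with results of these data in view, so counts of called factors are descriptions. For 59 of them the deposited tables carry the name itself, and DBP4 was found through its locus tag, since the tables list it as HCA4. SIK1 is the tables' name for NOP56.

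The treated cells were BY4741 MATa cultures in rich medium given 10 µM of Iztli peptide 1 (IP-1) and harvested 3.5, 7, 15 or 30 min later, and the untreated cells were BY4741 MATa cultures without the peptide, harvested at the same times. BY4741 is a laboratory strain that carries deletions of HIS3, LEU2, MET17 and URA3, shared by both groups. IP-1 RNA was labelled with Cy5 and untreated RNA with Cy3 on each of 4 arrays, 1 array per exposure, with no dye swap. Each gene has 2 spots on an array, and these are the deposited replicates 1 and 2. The 8 deposited samples were therefore counted as 4 arrays, which the tests treat as independent.

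Ribosomes are built in the nucleolus from a long precursor rRNA. Small nucleolar RNPs guide the modification and early cleavage of the precursor, and large assemblies of proteins, helicases, methyltransferases and GTPases then fold and trim the rRNA of the small and the large subunit. In yeast the genes for these factors are known to be regulated together with growth, and they are among the genes that fall when growth is restrained.

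Each ratio below is the log2 of IP-1 intensity divided by untreated intensity, after background correction and loess scaling, which sets each gene against features of equal brightness on its array. The array at 30 min was the least reproducible, with a correlation of 0.56 between duplicate spots across all tested features, while the 3.5, 7 and 15 min arrays gave 0.78, 0.76 and 0.91. AGA1, an agglutinin subunit induced by mating pheromone, was higher on each array, with log2 ratios of 2.68, 1.65, 1.97 and 1.51 at 3.5, 7, 15 and 30 min (limma, adjusted p = 0.00243). Of 7 a-specific genes 2 were called higher, the pheromone precursors MFA1 (mean log2 ratio 0.98, limma, adjusted p = 0.042) and MFA2 (0.58, limma, adjusted p = 0.0464). The other a-specific genes did not pass, with means from 0.21 (STE2) to 0.63 (BAR1). Of 5 alpha-specific genes 0 passed the test. Both channels held MATa cells, so a ratio between them cannot check the mating type. Without the 3.5 min array neither precursor was called (MFA1 mean 0.80, adjusted p = 0.191, MFA2 mean 0.41, adjusted p = 0.174), nor without the 7 min array (MFA1 mean 1.23, adjusted p = 0.0853, MFA2 mean 0.70, adjusted p = 0.111), and MFA2 was not called without the 15 min array either (mean 0.50, adjusted p = 0.0696). AGA1 was called with any 1 array left out. It had the highest mean of 7 pheromone response genes, of which 5 passed the test. The other genes of that check, FUS1 and PRM1, named after their values were seen, did not pass (adjusted p = 0.128 and 0.136) and lay below 0 at 7 min. Omitting the array of 3.5, 7, 15 or 30 min left 1, 2, 4 or 5 of the 5 called. All 5 alpha-specific genes and all 4 genes deleted in BY4741 gave signal above background in both channels of every array. Among tested features, LEU2 stood at the brightness percentile 99.9, MET17 at 74.1, HIS3 at 55 and URA3 at 13.9. The called factors described below stood between 41.3 (LOC1) and 61.3 (FAL1). Spot brightness therefore was not read as a level of a transcript.

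Of the 60 assembly factors 59 could be tested, since both spots exceeded background in at least 1 channel on all 4 arrays, and 56 did so in both channels. The exception was ERB1, a large-subunit factor that works with NOP7 and YTM1. At 3.5 min only 1 of its 2 spots passed in each channel. ERB1 had log2 ratios of −0.32, −0.28, −0.26 and −0.11 at 3.5, 7, 15 and 30 min, which lay below 0 on all 4 arrays and were not tested.

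After IP-1 the assembly factors split into a few that rose, a few that fell and a majority without a call. LOC1 and NOP2 rose, FAL1, BRX1 and IPI3 fell, and the other 54 tested factors did not pass the test of the mean over the 4 exposures (limma, adjusted p under 0.05). The 5 called factors are 8.47% of those tested, beside 8.91% of all 6152 tested features. By direction, 2 factors (3.39%) were called higher beside 2.08% of all features, and 3 factors (5.08%) were called lower beside 6.83% of all features. At an unadjusted p under 0.05 the share was 27.1%, which is 16 of 59 factors, beside 28.2% of all features. Both shares lie near the background and are no result about the factors as a group.

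**Figure D1:**
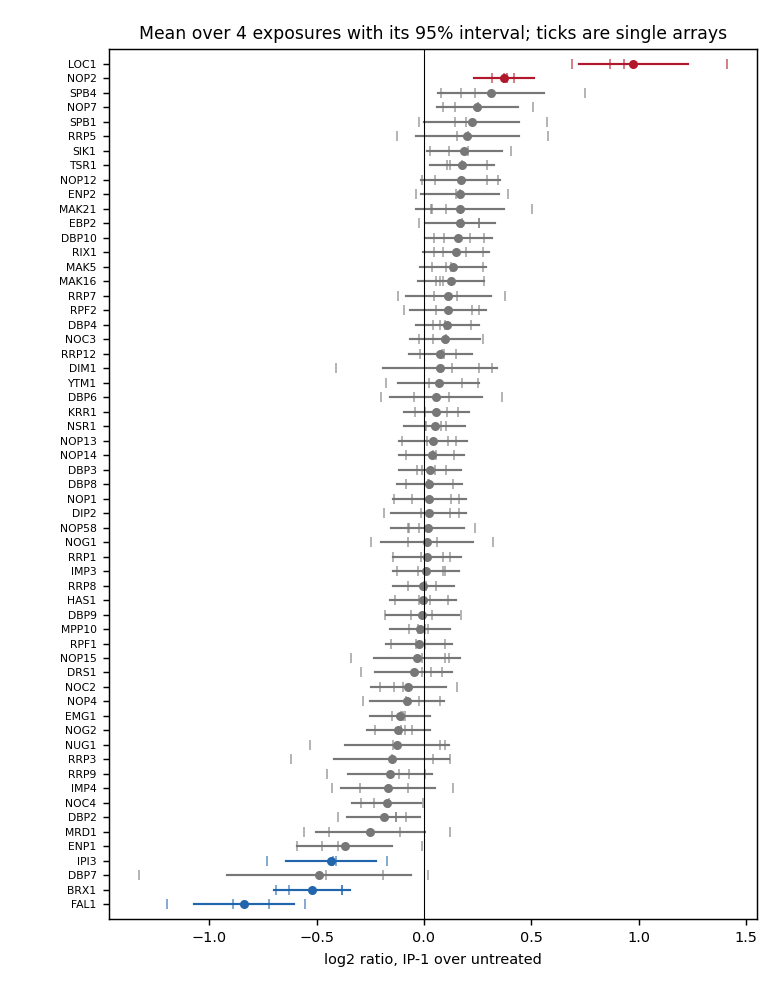
Mean log2 ratio of IP-1 over untreated across 4 exposures (points) for the 59 tested assembly factors, with the 95% interval from limma as bars and the 4 arrays as ticks; red factors were called higher, blue factors lower and grey factors not called. LOC1 at 0.98 and FAL1 at −0.84 mark the ends, and most factors lie near 0.

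The size of effect that could be resolved differed among the factors. The 95% interval of a factor's mean had a median half-width of 0.172 on the log2 scale, between 0.138 and 0.43 among the 59 factors. The called changes ranged from 0.375 to 0.976 in size. The median of the 59 means was 0.02, beside 0.01 for all tested features; on the deposited ratios without centring it was −0.17, beside −0.23 for all tested features. The means had an SD of 0.24 across the factors and 0.20 across all features.

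LOC1 had the highest mean of the 59 tested factors. It encodes a nuclear RNA-binding protein needed for large-subunit assembly, which is also known for its part in the localisation of ASH1 mRNA. LOC1 had log2 ratios of 0.93, 0.87, 1.41 and 0.69 at 3.5, 7, 15 and 30 min. It was higher on all 4 arrays, and its mean was 0.98 ± 0.31 (SD, n = 4 arrays), or 1.97-fold (limma, adjusted p = 0.00508). The first spot of LOC1 gave 1.00, 0.87, 1.44 and 0.64 and the second 0.86, 0.86, 1.38 and 0.74 in the same order, so the duplicates lay close together on each array. Its spots were dim. Net intensity in the IP-1 channel was 139, 219, 391 and 109 scanner units at 3.5, 7, 15 and 30 min, against 69, 152, 118 and 79 in the untreated channel. The unscaled log2 ratios of the raw intensities of LOC1 were 0.64, −0.22, 1.24 and 0.41. At 7 min its raw intensity was thus lower in the IP-1 channel, where the median of all features was −0.73.

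NOP2, a nucleolar methyltransferase that modifies the large-subunit rRNA, rose less but more evenly. Its log2 ratios were 0.37, 0.32, 0.42 and 0.39 at 3.5, 7, 15 and 30 min, with a mean of 0.37 ± 0.04 (SD, n = 4 arrays), or 1.3-fold (limma, adjusted p = 0.0148). All 8 spots lay above 0. Before scaling, the rise was not seen on each array. Net intensity was 138, 339, 182 and 322 in the IP-1 channel, against 134, 340, 132 and 320 in the untreated channel, so that the channels were nearly equal at 3.5, 7 and 30 min. The unscaled log2 ratios of the raw intensities were 0.23, −0.24, 0.40 and 0.19, where the median of all features was −0.15, −0.73, −0.04 and −0.10. The rise of NOP2 is thus one relative to features of equal brightness.

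FAL1 had the lowest mean of the 59 tested factors. It encodes a DEAD-box helicase of the small-subunit pathway that resembles the translation initiation factor eIF4A. FAL1 had log2 ratios of −0.72, −0.89, −1.20 and −0.56 at 3.5, 7, 15 and 30 min, and all 8 spots lay below 0. Its mean was −0.84 ± 0.27 (SD, n = 4 arrays), or 1.79-fold lower (limma, adjusted p = 0.00617). Net intensity was 190, 150, 341 and 113 in the IP-1 channel, against 479, 422, 758 and 256 in the untreated channel. The IP-1 channel was thus the dimmer one on each array before any scaling, as it was in raw intensity for the median feature. The unscaled log2 ratios of the raw intensities of FAL1 were −0.97, −1.35, −1.01 and −0.56. The median of all features was −0.15, −0.73, −0.04 and −0.10.

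BRX1 and IPI3, both of the large-subunit pathway, fell as well. BRX1 is a nucleolar protein of the Brix family. It had log2 ratios of −0.63, −0.38, −0.69 and −0.38, with a mean of −0.52 ± 0.16 (SD, n = 4 arrays), or 1.43-fold lower (limma, adjusted p = 0.0109). IPI3, a WD-repeat subunit of the Rix1 complex, had log2 ratios of −0.42, −0.41, −0.73 and −0.17, with a mean of −0.43 ± 0.23 (SD, n = 4 arrays), or 1.35-fold lower (limma, adjusted p = 0.027). All 8 spots of each gene lay below 0. Net intensity of BRX1 was 103, 114, 261 and 59 in the IP-1 channel, against 264, 240, 427 and 129 in the untreated channel. Net intensity of IPI3 was 109, 209, 116 and 150 in the IP-1 channel, against 230, 385, 234 and 239 in the untreated channel.

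**Figure D2:**
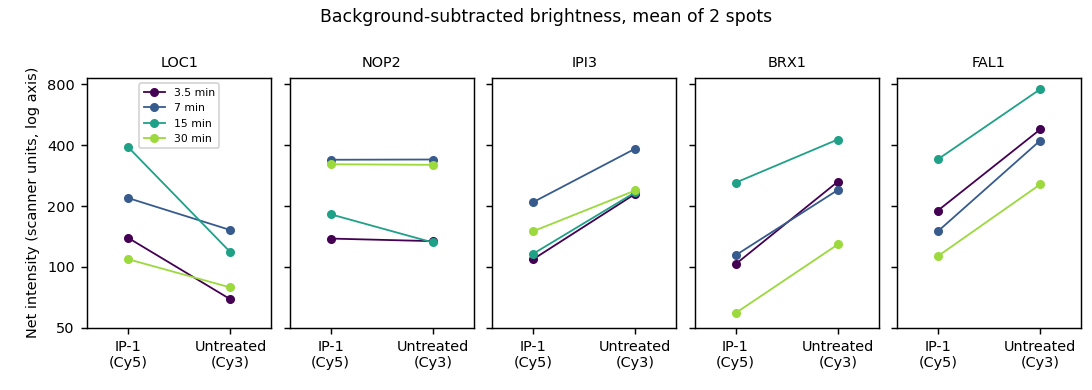
Background-subtracted intensity in scanner units (log axis, mean of 2 spots, no scaling between channels) in the IP-1 channel and the untreated channel for the 5 called factors, with a line per exposure. LOC1 is brighter in the IP-1 channel at each exposure after background subtraction, but not in raw intensity at 7 min. NOP2 is nearly level except at 15 min, and FAL1, BRX1 and IPI3 are dimmer in the IP-1 channel at each exposure. The median raw log2 ratio of all features was also negative on each array.

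These 5 calls rest on few arrays. Without the array at 3.5 min or without that at 7 min, 0 of the 59 factors were called, beside 0.195% and 0.163% of all features, so a count of 0 says nothing particular about the factors. Each of the 5 factors lay on the same side of 0 on all 4 arrays, so leaving out an array could not change the sign of its mean. In these fits 1411 and 1184 of all features had an unadjusted p under 0.05 (limma). In this order of omission, LOC1 had means of 0.99 (adjusted p = 0.0708) and 1.01 (adjusted p = 0.0541). FAL1 had −0.88 (adjusted p = 0.0707) and −0.82 (adjusted p = 0.0738), BRX1 −0.48 (adjusted p = 0.0895) and −0.57 (adjusted p = 0.075), IPI3 −0.44 (adjusted p = 0.125) and −0.44 (adjusted p = 0.135), and NOP2 0.38 (adjusted p = 0.09) and 0.39 (adjusted p = 0.0925). Without the array at 15 min the same 5 factors were called, 8.47% of the factors beside 7.59% of all features. Leaving out 30 min gave these and ENP1, 10.2% beside 9.35% of all features. Because IP-1 RNA carried Cy5 throughout, a constant dye bias of a single probe and a change after IP-1 cannot be told apart.

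Other extreme factors did not pass. ENP1, a small-subunit factor that stays with the precursor from the nucleolus to the cytoplasm, had log2 ratios of −0.47, −0.59, −0.40 and −0.01 at 3.5, 7, 15 and 30 min. Its mean was −0.37 ± 0.25 (SD, n = 4 arrays; limma, adjusted p = 0.052). With 1 array left out, in the order of the exposures, it was −0.33 (adjusted p = 0.19), −0.29 (adjusted p = 0.217), −0.36 (adjusted p = 0.0708) and −0.49 (adjusted p = 0.0155), so only the omission of 30 min gave a call. DBP7, a large-subunit helicase, varied most between exposures, with log2 ratios of −0.46, −0.19, −1.33 and 0.02 and a mean of −0.49 ± 0.59 (SD, n = 4 arrays; limma, adjusted p = 0.136). Without the array at 15 min its mean was −0.21 (adjusted p = 0.213). DBP7 was bright, with net intensities of 3477, 2970, 1562 and 2222 in the IP-1 channel, against 5897, 3485, 3152 and 2590 in the untreated channel. MRD1, an RNA-binding protein of the small-subunit precursor, had log2 ratios of 0.12, −0.11, −0.56 and −0.44 and a mean of −0.25 ± 0.31 (SD, n = 4 arrays; limma, adjusted p = 0.184). Without the array at 15 min the MRD1 mean was −0.15 (adjusted p = 0.436).

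On the high side, 4 factors with means next to those of LOC1 and NOP2 missed the threshold. SPB4, a large-subunit helicase, had log2 ratios of 0.17, 0.24, 0.75 and 0.08 and a mean of 0.31 ± 0.30 (SD, n = 4 arrays; limma, adjusted p = 0.108). NOP7, the partner of ERB1, had 0.25, 0.15, 0.51 and 0.09 and a mean of 0.25 ± 0.19 (SD, n = 4 arrays; limma, adjusted p = 0.0965). SPB1, a methyltransferase of the large-subunit rRNA, had 0.14, 0.20, 0.57 and −0.02 and a mean of 0.22 ± 0.25 (SD, n = 4 arrays; limma, adjusted p = 0.175). RRP5, which binds the precursor of both subunits, had −0.12, 0.20, 0.58 and 0.15 and a mean of 0.20 ± 0.29 (SD, n = 4 arrays; limma, adjusted p = 0.248). Each of the 4 had its highest ratio at 15 min. Without that array the means were 0.16 for SPB4, 0.16 for NOP7, 0.11 for SPB1 and 0.08 for RRP5 (adjusted p from 0.218 to 0.632).

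**Figure D3:**
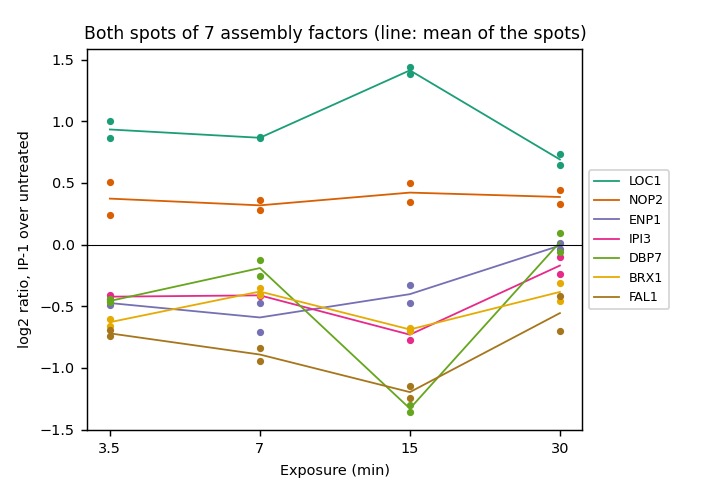
Log2 ratio of IP-1 over untreated at 3.5, 7, 15 and 30 min for the 5 called factors and for ENP1 and DBP7; points are the 2 spots and lines their mean. LOC1 peaks at 1.41 at 15 min, FAL1 and DBP7 reach −1.20 and −1.33 there, and DBP7 is back at 0.02 at 30 min.

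The slope on log2 minutes was called for 0 of 59 factors, beside 0% of all features (limma, adjusted p under 0.05), which with 4 arrays does not show that trends were absent. At an unadjusted p under 0.05 there was 1 factor, or 1.69%, beside 0.992% of all features. This was MRD1, with a slope of −0.21 per doubling of the exposure (limma, unadjusted p = 0.0204, adjusted p = 1).

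Changes of direction across arrays were also counted without a threshold. The 13 factors above 0 on all 4 arrays, or 22%, stand beside 17.5% of all features. They were LOC1, NOP2, SPB4, NOP7, SIK1, TSR1, MAK21, DBP10, RIX1, MAK5, MAK16, DBP4 and NSR1. The 8 factors below 0 on all 4 arrays, or 13.6%, stand beside 19.4% of all features. They were FAL1, BRX1, IPI3, ENP1, DBP2, NOC4, NOG2 and EMG1.

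The exposures differed in how far the factors spread. At single exposures there is 1 array each, so values are described without a test. The median log2 ratio of the 59 factors was −0.01, 0.09, 0.09 and 0.02 at 3.5, 7, 15 and 30 min, beside 0.00, 0.01, 0.01 and 0.00 for all tested features. The SD across factors was 0.25, 0.24, 0.44 and 0.19, beside 0.25, 0.22, 0.35 and 0.18 across all features. The 15 min array therefore carried the widest spread and the 30 min array the narrowest, for the factors as for all features. With median centring in place of loess, the factors' median was −0.05, 0.21, 0.27 and 0.00. That setting puts the median spot of each array at 0 and does not set a gene against features of equal brightness. Most factors had bright spots, with 44 of 59 above the median feature, and whether brightness moved these medians was not tested.

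**Figure D4:**
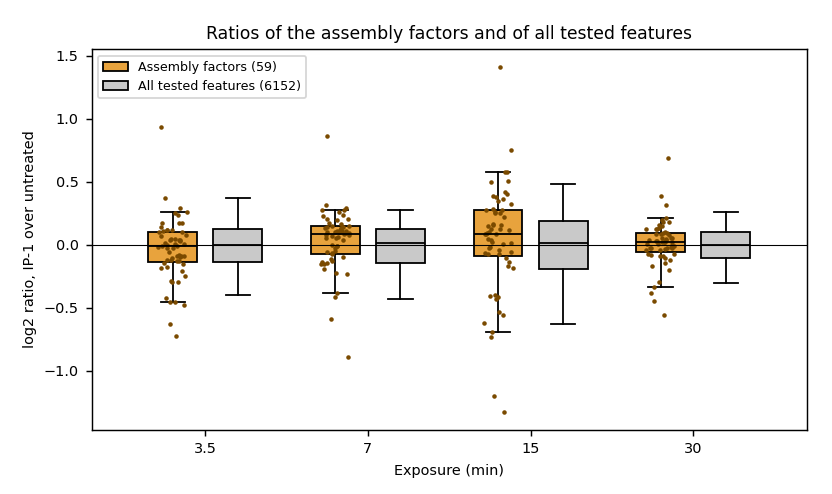
Log2 ratio of IP-1 over untreated at each exposure for the 59 tested assembly factors (orange, with each factor as a point) and for all 6152 tested features (grey); boxes span the quartiles, lines the medians and whiskers the 5th to 95th percentile. The boxes overlap at each exposure, and a few factors lie far out at 15 min.

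Large ratios were few. Both spots passed a 2-fold ratio for 3 factors at 15 min, LOC1 upward and DBP7 and FAL1 downward, which is 5.08% of the factors beside 1.32% of all features. At 3.5, 7 and 30 min no factor did so, beside 0.341%, 0.0813% and 0.0163% of all features. At a lower limit of 1.5-fold, the factors higher at 3.5, 7, 15 and 30 min numbered 1, 1, 2 and 1, beside 1.19%, 0.211%, 2.41% and 0.341% of all features. Those lower numbered 2, 1, 4 and 0, beside 1.07%, 0.829%, 5.15% and 0.26% of all features. With counts of 0 to 4, 1 factor more or less moves these shares by 1.69 percentage points.

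The 5 calls were also counted by role, beside the 2.08% of all features called higher and 6.83% called lower. Helicases of either subunit form a class of their own here. Of 20 tested large-subunit factors 2 were called higher and 2 lower, and their means had a median of 0.11. Of the 14 helicases 1 was called lower, FAL1, with a median of 0.01. The 17 small-subunit factors that are not helicases and the 4 box C/D and U3 snoRNP proteins had no call, with medians of 0.04 and 0.02. With so few calls the counts single out no role, and differences between roles were not tested.

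**Figure D5:**
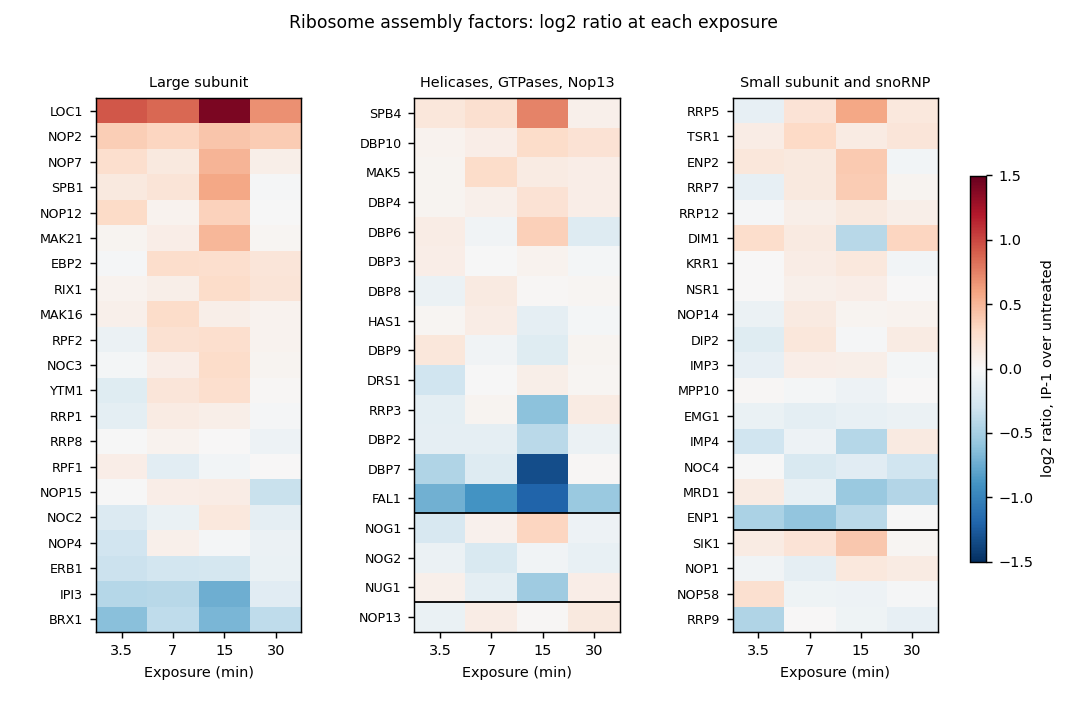
Log2 ratio of IP-1 over untreated for all 60 assembly factors at 3.5, 7, 15 and 30 min, in columns by role and ordered by mean within each role; red is higher and blue lower after IP-1. LOC1 is red and FAL1 and BRX1 are blue at each exposure, and most other factors are pale except at 15 min.

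Among the large-subunit factors, some known partners gave different values. BRX1 fell, while EBP2, which binds it in yeast, had log2 ratios of −0.02, 0.26, 0.26 and 0.18. IPI3 fell, while RIX1 of the same complex had 0.05, 0.09, 0.27 and 0.19. These pairs differ in sign at 7, 15 and 30 min, and IPI3 and RIX1 also at 3.5 min. YTM1, which forms a complex with NOP7 and ERB1, had −0.18, 0.18, 0.25 and 0.02. Partners outside this set of factors are not compared here, and the differences between partners were not tested.

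The NOC proteins, which travel with the precursor in pairs, were mixed. MAK21, also known as NOC1, had log2 ratios of 0.04, 0.10, 0.50 and 0.03. NOC2 had −0.21, −0.10, 0.16 and −0.14, and NOC3 had −0.03, 0.10, 0.28 and 0.04. All 3 were highest at 15 min, and their means of 0.17, −0.07 and 0.10 stayed within 0.2 of 0.

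The remaining large-subunit factors stayed near 0. The Brix-family proteins RPF1 and RPF2 had means of −0.02 ± 0.10 and 0.11 ± 0.16, and the RNA-binding proteins NOP4, NOP12 and NOP15 had −0.08 ± 0.15, 0.17 ± 0.17 and −0.03 ± 0.21 (SD, n = 4 arrays). MAK16 had 0.12 ± 0.10, RRP1 0.01 ± 0.12, and RRP8, a methyltransferase, 0.00 ± 0.05 (SD, n = 4 arrays). NOP15 was near 0 up to 15 min and stood at −0.34 at 30 min.

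The other helicases gave small means. DEAD-box helicases use ATP to open RNA duplexes in the precursor. MAK5, DBP10 and DBP4 were above 0 on each array, with means of 0.14 ± 0.10, 0.16 ± 0.11 and 0.11 ± 0.08 (SD, n = 4 arrays). DBP2, which also acts on mRNA, was below 0 on each array, at −0.13, −0.13, −0.40 and −0.09. RRP3, a small-subunit helicase, had −0.15, 0.04, −0.62 and 0.12, with its lowest ratio on the 15 min array and a mean of −0.15. DBP3, DBP6, DBP8, DBP9, DRS1 and HAS1 had means between −0.05 and 0.06.

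The GTPases NOG1, NOG2 and NUG1 act as switches in the release of factors from the large-subunit precursor. NOG1 had log2 ratios of −0.25, 0.06, 0.32 and −0.07, NOG2 had −0.09, −0.23, −0.06 and −0.11, and NUG1 had 0.07, −0.14, −0.53 and 0.10. NOG1 and NUG1 thus stood on opposite sides of 0 at 15 min, and neither kept 1 direction over the arrays. NOP13, a nucleolar protein of unassigned role here, had a mean of 0.04 ± 0.11 (SD, n = 4 arrays).

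Apart from the helicase FAL1, no small-subunit factor was called. TSR1, a GTPase-like factor of the late small-subunit precursor, was above 0 on each array, at 0.11, 0.29, 0.12 and 0.18. Its spots were dim, with net intensities of 40, 50, 39 and 51 in the IP-1 channel, against 46, 66, 45 and 62 in the untreated channel. EMG1, a methyltransferase, was below 0 on each array with little spread, at −0.10, −0.15, −0.11 and −0.09. NOC4, which binds NOP14, had −0.01, −0.23, −0.16 and −0.30, while NOP14 had −0.08, 0.14, 0.04 and 0.05. NOC4 was dim too, and at 3.5 min its spots did not both exceed background in the IP-1 channel. MPP10, IMP3 and IMP4, which form a complex with the U3 snoRNA, had means of −0.02 ± 0.04, 0.01 ± 0.11 and −0.17 ± 0.25 (SD, n = 4 arrays).

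DIM1, which dimethylates the small-subunit rRNA, was the most uneven of the group by SD, with log2 ratios of 0.26, 0.13, −0.41 and 0.32. Its low value stood on the 15 min array alone. ENP2 had 0.17, 0.15, 0.39 and −0.04, and RRP7 had −0.12, 0.15, 0.38 and 0.04. RRP12, KRR1, DIP2 and NSR1, a nucleolin-like protein, had means between 0.02 and 0.08.

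The box C/D proteins carry out the methylation of rRNA guided by small nucleolar RNAs. SIK1 had log2 ratios of 0.12, 0.21, 0.40 and 0.03. NOP58, which sits beside SIK1 in the same particle, had 0.24, −0.07, −0.08 and −0.02, and the methyltransferase NOP1 had −0.06, −0.14, 0.16 and 0.13. RRP9, specific to the U3 particle, had −0.45, 0.00, −0.07 and −0.12. No protein of this group passed the test.

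Other genes of ribosome assembly, from lists written for this comparison, are given beside the 2.08% of all features called higher and the 6.83% called lower. Of 106 tested further assembly factors 0 were called higher and 4 lower, or 3.77% in either direction beside 8.91% of all features (limma, adjusted p under 0.05). ARX1, which helps export the large subunit, had log2 ratios of −0.56, −0.46, −0.61 and −0.32 (mean −0.49, adjusted p = 0.0109, limma). UTP6, a subunit of the early small-subunit assembly, had a mean of −0.46 (adjusted p = 0.0235, limma), PUF6, an RNA-binding protein, −0.35 (adjusted p = 0.0339, limma), and ECM16, a helicase, −0.31 (adjusted p = 0.0233, limma). The median of the 106 means was 0.03. Without the 3.5 min array 0 of these 4 were still called (adjusted p from 0.0892 to 0.144), and 0 without the 7 min array (adjusted p from 0.0853 to 0.161).

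Of 33 genes of the nuclear exosome and rRNA trimming 0 were called higher and 3 lower, or 9.09% beside 8.91% of all features. These were the RNase P and MRP subunit POP1 (mean −0.45, adjusted p = 0.0224, limma) and the exosome subunits RRP40 (−0.37, adjusted p = 0.0181, limma) and RRP46 (−0.31, adjusted p = 0.0498, limma). Of 29 regulators of ribosome biogenesis genes 1, or 3.45%, was called lower, MRS6, which binds the regulator Sfp1 (mean −0.46, adjusted p = 0.0208, limma). The medians of these lists were 0.01 and 0.00. None of the 4 genes was still called without the 3.5 min array (adjusted p from 0.094 to 0.179) or without the 7 min array (adjusted p from 0.108 to 0.205), and RRP46 was not called without the 15 min array either (adjusted p = 0.0768).

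Chromosomal neighbours of the called factors were also looked at. Of 10 neighbouring genes in the R64 reference table, all tested, 1 was called higher and 1 lower. Of all features 2.08% were called higher and 6.83% lower, and counts this small are no result about the neighbours. MDM20 beside BRX1 had a mean of −0.37 (adjusted p = 0.0226, limma), in the same direction as BRX1. ATG31 beside FAL1 had 0.30 (adjusted p = 0.0257, limma), opposite to FAL1. Both are named after their values were seen, and neither was called without the 3.5 min array (adjusted p = 0.108 for MDM20 and 0.109 for ATG31) or without the 7 min array (adjusted p = 0.111 for MDM20 and 0.136 for ATG31). DEG1 and NIC96 on either side of LOC1 had 0.03 and 0.08.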

How the data were processed

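Per the file headers, the deposited scanner tables hold raw and local background intensity for each spot in both channels. The deposited series matrix holds log10 ratios of the raw intensities (Cy5 divided by Cy3), which each of its 6368 rows matches in all 8 columns within 4.98e-07, read from the values, with no centring. The scanner software and probe build are not given in the sources used here.

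Raw intensity was corrected with normexp (offset 50) and scaled within each array by loess (span 0.3, 4 iterations, weight 0 for control and empty spots), and the 2 spots of a feature were averaged. Features with both spots more than 2 background SDs above background in at least 1 channel on all 4 arrays were tested, 6152 of 6336. The mean of 4 arrays and the slope on log2 minutes were tested with limma 3.58.1 in R 4.3.3 (lmFit, eBayes, two-sided, Benjamini-Hochberg over all tested features). A run on simulated data asked only whether most planted changes were recovered, which does not show that the calls made here are stable. Figures were drawn with matplotlib 3.10.9 under Python 3.11.15. The replicate spread behind each p-value is that among the 4 exposures, each array with 1 treated and 1 untreated culture. The number of arrays limits the precision.

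The reference table matched 5763 features. Each factor may be named. Full statistics are given for called factors, the 6 highest and 6 lowest means, and factors past 2-fold in both spots on any array. Called genes of the other lists, AGA1 and strain markers are also named. Members and lists were chosen with earlier results of these data known. Alternatives concerned background, scaling, filter, fold limit and single arrays. Promoter motifs and other sequences were not analysed here.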

Additional observations from a re-analysis of the deposited data

How the results depend on the processing

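No paired analysis was possible because the replicate numbers mark the 2 spots of 1 hybridisation and pair no cultures; the pairing of the treated with the untreated culture of an array is already in each log ratio. The planned description by promoter motif was not run. The means of the 12 factors given with full statistics kept their sign under all 12 alternatives, but not every alternative could have changed it. Another filter leaves a factor's mean as it is. Leaving out an array cannot reverse a factor that has the same sign on all 4 arrays. Of 561 values for the other factors 62 moved by more than the SD between arrays. The 561 include values under another filter, which could not move. All features called numbered 263 without background correction (50 higher, 213 lower), 304 with median centring (78 higher, 226 lower), 59 on the deposited log ratios (7 higher, 52 lower), whose features' means have a median of −0.23, and 5 on those ratios centred on the median, chosen after seeing the data (4 higher, 1 lower). Leaving out 1 array gave 10 to 575 (7 to 154 higher, 2 to 421 lower) and 0 to 30 trend calls. Assembly factors called numbered 1 on the deposited ratios, FAL1 (0 higher, 1 lower), 0 on the centred ones (0 higher, 0 lower), where 600 features had an unadjusted p under 0.05 (limma), and 0 to 6 without 1 array (0 to 2 higher, 0 to 4 lower). LOC1 ranged from 0.52 to 1.24 and NOP2 from 0.14 to 0.45 over 12 alternatives, FAL1 from −0.97 to −0.72, BRX1 from −0.67 to −0.42 and IPI3 from −0.64 to −0.33. ENP1 was called under 4 alternatives. IPI3 was also not called without background correction (adjusted p = 0.0638, range 0.0184 to 0.374). Factors past 2-fold numbered 1 at 3.5 min and 1 at 7 min with an offset of 10. On the deposited ratios they numbered 6 at 7 min, all downward, where the median of all features was itself −0.73. At 15 min they numbered 1 with median centring, 1 on the deposited ratios and 1 on the centred ones. Shares of all features under these alternatives are not given here, so these counts are no result about the factors. With a 1.5-fold limit the factors past it numbered 3, 2, 6 and 1 at 3.5, 7, 15 and 30 min. The causes were not tested. Low signal over background limits the dim factors: the median raw Cy5 intensity was 1.86 times background at 30 min and 3.77 times at 15 min.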
